A study of Oryctolagus cuniculus with 16 samples.

Results

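The basilar terminus (BT), where the basilar artery divides at the end of its course, was compared with the straight basilar artery (BA) in the media of rabbits with normal flow. The members were the 4 medial libraries of the sham-operated rabbits, 2 from the BT and 2 from the BA, out of 16 libraries in the series. They were chosen by their labels for location, layer and flow and not by any measured value. Rabbit 3 and rabbit 4 each gave 1 BT and 1 BA library, so the comparison was made within the rabbit. The animals were female New Zealand white rabbits that had undergone sham surgery 24 h earlier, with both common carotid arteries intact. The other libraries came from the intima of the same 2 rabbits and from both layers of rabbits 5 and 6, whose common carotid arteries had been ligated for 24 h to raise flow in the BA. Tissue was cut out by laser microdissection, and several sections were combined in each library. The BA was sectioned lengthwise and the BT in the coronal plane, so the section plane and the location cannot be told apart. The paper also lists a lower RNA concentration and a lower share of aligned reads for the medial BT than the medial BA in both sham rabbits. These cannot be told apart from the location either.

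The arterial media is made of vascular smooth muscle cells (VSMCs) lying between elastic fibres, collagens and proteoglycans that they secrete. VSMCs of different vascular segments carry different sets of patterning transcription factors, receptors and matrix genes. At a terminus the stream meets the apex of the branch point, and wall shear stress and its gradients are higher there than in the straight vessel. Arterial bifurcations of this kind are the usual sites of intracranial aneurysms, in which VSMCs and elastic fibres of the media are lost.

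Between 3978419 and 11219236 reads were counted on named genes in the 4 libraries. Expression is given as CPM (a gene's counts scaled to a common library total) after TMM scaling, with rabbit 3 named before rabbit 4 wherever a pair of values is given. The labelled tissue was checked against 5 VSMC markers, of which 3 were among the deposited symbols. ACTA2, the smooth muscle actin, was at 89748 and 62580.2 CPM in the BT and 74282 and 65849 CPM in the BA. MYH11, the smooth muscle myosin heavy chain, was at 1966 and 1325 CPM in the BT and 1296 and 1540.4 CPM in the BA, and DES, the intermediate filament desmin, at 607 and 1087 CPM in the BT and 486 and 1493 CPM in the BA. None of the 3 passed the test of location (log2 difference 0.10 ± 0.11 SE, q = 0.912 for ACTA2). ACTA2 was also high in the sham intima, scaled separately, at 20000 and 19944 CPM in the BT and 76622 and 34702 CPM in the BA. Its level alone thus did not tell media from intima. Endothelial markers were found in the medial libraries as well, unequally between them. CDH5, the endothelial cadherin, was at 0 and 7.13 CPM in the BT and 0.858 and 5.77 CPM in the BA, and VWF, the von Willebrand factor, was higher in both libraries of rabbit 4, at 25.2 and 590.3 CPM in the BT and 29.1 and 169.7 CPM in the BA.

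Of 8849 genes tested with rabbit as a block (edgeR quasi-likelihood F test, q-value below 0.05 after Benjamini-Hochberg adjustment), 14 were higher in the BT (0.158%) and 30 were lower (0.339%). At an unadjusted p below 0.05, 410 genes were higher and 339 lower. The median log2 difference of all tested genes was -0.03, and it was -0.17 under scaling by library size with no TMM factor. Of the calls, 31.8% were higher genes under TMM and 18.8% under library size alone, where 12 genes were higher and 52 lower. Without the rabbit block no gene was called higher and only APOD was called lower. The other 43 calls thus depended on the block being in the fit. The log2 difference of NR4A1 hardly changed (2.26 ± 0.44 SE without the block, q = 0.988, against 2.26 ± 0.41 SE), while that of CLU moved from -2.41 to -1.52. The block left 1 residual degree of freedom, so the spread behind each p-value was largely taken from all genes together.

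In 1397 genes (15.8%) both BT libraries were above both BA libraries, and in 1598 genes (18.1%) both were below. Of the 14 genes called higher, 12 had no overlap between the locations, the exceptions being CYTL1 and ST8SIA4. Of the 30 genes called lower, 26 had no overlap, the exceptions being CLU, ISG15, RAMP2 and MMP9. Across all tested genes the log2 ratios of BT over BA in the 2 rabbits were only weakly related (Pearson's r = 0.102 and a Spearman coefficient of 0.141 over 8849 genes, and r = 0.240 over the 5681 genes above 10 CPM). These correlations are across genes, which are not independent replicates and which shared the same 4 libraries.

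**Figure D1:**
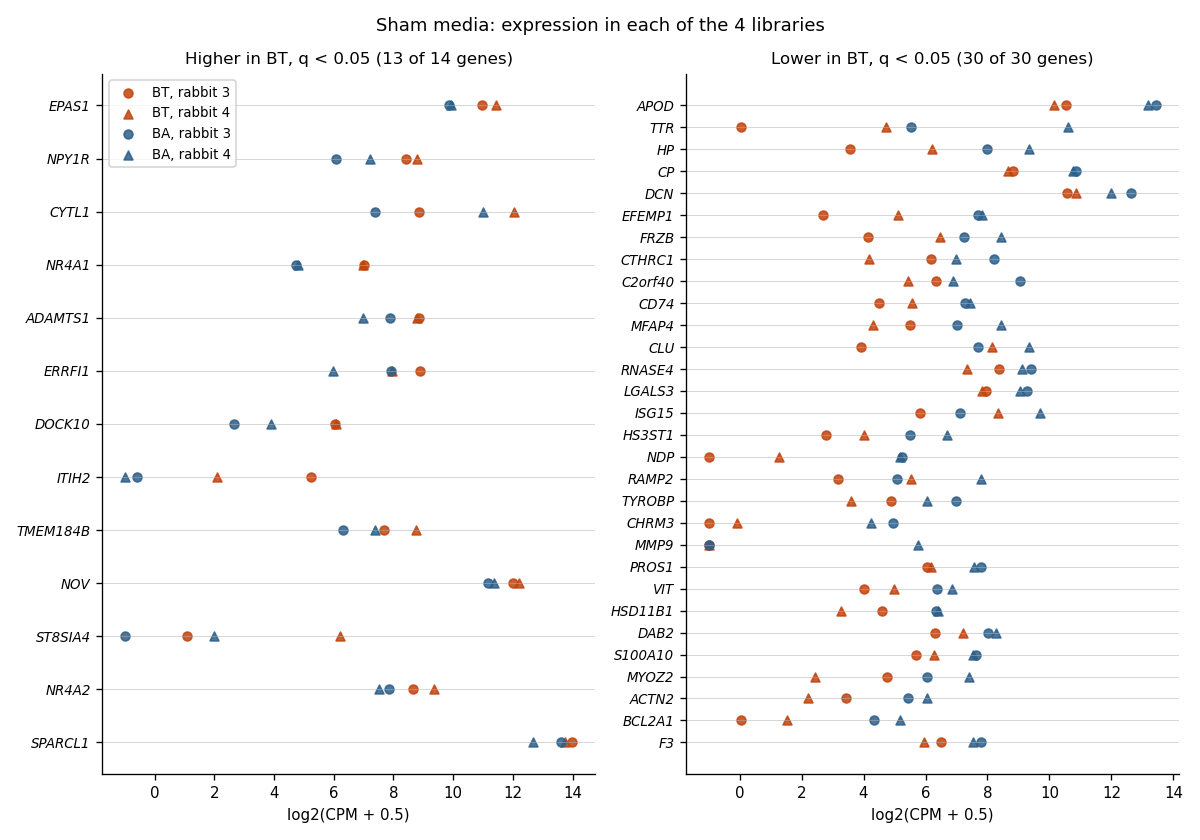
Level of 43 of the 44 called genes in the 4 medial libraries of sham rabbits, as log2(CPM + 0.5), with BT libraries in orange, BA libraries in blue, rabbit 3 as circles and rabbit 4 as triangles. The left panel holds 13 of the 14 genes higher in the BT and the right panel the 30 genes lower in the BT, ordered by p, and MMP9 is seen above 0 counts in only 1 library.

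The genes higher in the BT included receptor and signalling genes. NPY1R encodes the Y1 receptor through which neuropeptide Y of perivascular nerves constricts arteries. It was at 338 and 442 CPM in the BT and 66.5 and 149 CPM in the BA. Both BT libraries were above both BA libraries, and NPY1R was 3.88-fold higher in the BT (log2 difference 1.95 ± 0.30 SE, q = 0.00108). ERRFI1, a feedback inhibitor of the epidermal growth factor receptor, was at 476 and 245 CPM in the BT and 240.4 and 63.1 CPM in the BA and was 2.76-fold higher (log2 difference 1.47 ± 0.30 SE, q = 0.0223). The difference was 1.98-fold in rabbit 3 and 3.88-fold in rabbit 4. DOCK10, an exchange factor for small GTPases, was at 65.3 and 67.3 CPM in the BT and 5.83 and 14.6 CPM in the BA and was 7.15-fold higher (log2 difference 2.84 ± 0.58 SE, q = 0.0225). CYTL1, a small secreted cytokine-like protein, differed more between rabbits than between locations. It was at 463 and 4209 CPM in the BT and 168 and 2049 CPM in the BA, which is 2.76-fold and 2.05-fold higher in the BT within rabbits 3 and 4 (log2 difference 1.25 ± 0.20 SE, q = 0.00198). In the sham intima, scaled separately, CYTL1 was above every medial library, at 6046 and 37008 CPM in the BT and 8664 and 31583 CPM in the BA (log2 difference -0.15 ± 0.43 SE). The part of intimal cells in the medial CYTL1 result was not tested.

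Transcription factors were also among the higher genes. EPAS1 encodes HIF-2α, the hypoxia-inducible factor that is abundant in vascular cells. It was at 2018 and 2778 CPM in the BT and 928 and 978 CPM in the BA, with no overlap, and was 2.49-fold higher in the BT (log2 difference 1.31 ± 0.20 SE, q = 0.00108). The orphan nuclear receptors NR4A1 and NR4A2, which are immediate early genes, were both higher. NR4A1 was at 130.0 and 125 CPM in the BT and 26.1 and 27.2 CPM in the BA, nearly equal in the 2 rabbits at each location, and was 4.79-fold higher (log2 difference 2.26 ± 0.41 SE, q = 0.00838). NR4A2 was at 398 and 654 CPM in the BT and 231 and 181 CPM in the BA and was 2.50-fold higher (log2 difference 1.32 ± 0.28 SE, q = 0.0294).

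Matrix genes made up most of the rest. ADAMTS1, a secreted protease that cleaves versican and aggrecan, was at 461 and 441 CPM in the BT and 238 and 124 CPM in the BA and was 2.62-fold higher (log2 difference 1.39 ± 0.28 SE, q = 0.0223). NOV, the matricellular protein CCN3, was at 4080.2 and 4729 CPM in the BT and 2324 and 2666 CPM in the BA. The fold difference of NOV was small and alike in the 2 rabbits, 1.76-fold and 1.77-fold (log2 difference 0.82 ± 0.17 SE, q = 0.0239). SPARCL1, a matricellular relative of SPARC, was at 16326 and 13619 CPM in the BT and 12439 and 6552 CPM in the BA and was 1.65-fold higher (log2 difference 0.72 ± 0.16 SE, q = 0.035). ITIH2, a heavy chain that is attached to hyaluronan, had 139 and 25 reads in the BT and 2 and 0 reads in the BA. Its ratio over the summed libraries was 143, with a 95% counting interval of 39.0 to 1192 (q = 0.0228), and the 2 BT libraries were unequal at 37.3 and 3.72 CPM.

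TMEM184B and ST8SIA4 were higher in the BT as well. TMEM184B, a transmembrane protein, was at 204 and 429.7 CPM in the BT and 78.7 and 166 CPM in the BA and was 2.59-fold higher (log2 difference 1.37 ± 0.28 SE, q = 0.0238). ST8SIA4 adds polysialic acid to cell surface proteins. It was at 1.61 and 73.3 CPM in the BT and 0 and 3.49 CPM in the BA, so its level was mainly seen in rabbit 4, and it was 26.0-fold higher in the fit (log2 difference 4.70 ± 0.99 SE, q = 0.0276).

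The genes lower in the BT were led by APOD, a secreted lipocalin that carries small lipids. APOD was at 1477 and 1121 CPM in the BT and 11185 and 9208 CPM in the BA. The BA libraries thus lay far above the BT libraries in both rabbits, by 7.58-fold and 8.21-fold, and APOD was 7.89-fold lower in the BT (log2 difference -2.98 ± 0.17 SE, q = 1.12e-10). It was the only gene called under each of the 12 alternative settings. CP, HP and CLU, which are secreted as well, were also lower. CP, the copper-binding ferroxidase ceruloplasmin, was at 454 and 403 CPM in the BT and 1838 and 1724 CPM in the BA, with little difference between the rabbits, and was 4.16-fold lower (log2 difference -2.06 ± 0.21 SE, q = 4.34e-06). HP, haptoglobin, which binds free haemoglobin, was at 11.3 and 73.3 CPM in the BT and 251 and 654 CPM in the BA and was 13.5-fold lower (log2 difference -3.76 ± 0.35 SE, q = 8.15e-07). CLU, the extracellular chaperone clusterin, was at 14.8 and 283 CPM in the BT and 205 and 649 CPM in the BA. CLU was lower in the BT in each rabbit, by 13.9-fold and 2.30-fold, but the BT of rabbit 4 lay above the BA of rabbit 3 (log2 difference -2.41 ± 0.42 SE, q = 0.00578).

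TTR, transthyretin, is the thyroid hormone carrier that the choroid plexus makes in very large amounts. It was at 0.537 and 25.7 CPM in the BT and 45.3 and 1551 CPM in the BA. It was lower in the BT by 84.3-fold in rabbit 3 and 60.3-fold in rabbit 4 (log2 difference -5.98 ± 0.34 SE, q = 1.12e-10). The fold of rabbit 3 rested on only 2 reads in the BT, against 528 in the BA, and rabbit 4 held far more TTR at both locations. The summed level of the 4 ependymal and choroid markers, of which TTR was 1, was 1.61 and 81.9 CPM in the BT and 62.8 and 1646 CPM in the BA. KCNJ13, a potassium channel of choroid epithelium in the same list, was at 1.07 and 56.2 CPM in the BT and 17.5 and 93.5 CPM in the BA (log2 difference -1.99 ± 0.67 SE, q = 0.269). The part of choroid tissue in the TTR result was not tested.

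The genes lower in the BT included 5 that encode matrix proteins. DCN, the collagen-binding proteoglycan decorin, was at 1524 and 1854 CPM in the BT and 6360.0 and 4060.5 CPM in the BA and was 3.02-fold lower (log2 difference -1.60 ± 0.20 SE, q = 0.000129). EFEMP1, fibulin-3, was at 5.91 and 34.2 CPM in the BT and 209 and 224 CPM in the BA, and was 13.9-fold lower (log2 difference -3.80 ± 0.49 SE, q = 0.000129). The EFEMP1 ratio was unequal, 35.3-fold in rabbit 3 and 6.55-fold in rabbit 4, with a log2 difference of -2.70 without rabbit 3 and -5.16 without rabbit 4. MFAP4, a microfibril-associated protein, was at 44.3 and 19.2 CPM in the BT and 129 and 345 CPM in the BA and was 7.20-fold lower (log2 difference -2.85 ± 0.49 SE, q = 0.00455). Its log2 difference was -4.16 without rabbit 3 and -1.56 without rabbit 4, where MFAP4 no longer passed (q = 0.177). CTHRC1, a secreted collagen triple helix repeat protein, was at 72.5 and 17.7 CPM in the BT and 298 and 125 CPM in the BA and was 5.36-fold lower (log2 difference -2.42 ± 0.36 SE, q = 0.00108). VIT, the matrix protein vitrin, was at 15.8 and 30.9 CPM in the BT and 82.3 and 114 CPM in the BA and was 4.36-fold lower (log2 difference -2.12 ± 0.45 SE, q = 0.0294).

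The summed level of the 6 fibroblast markers, to which DCN belongs, was 2311 and 2435 CPM in the BT and 8141 and 4872 CPM in the BA. DCN made up most of this sum in every library, so the sum largely repeats the DCN result. Of the 5 fibroblast markers tested, DCN was called lower (against 0.339% of all genes) and the other 4 were not called. Of the 5, 3 lay below the BA without overlap (against 18.1% of all genes). LUM, the related proteoglycan lumican, was at 690.5 and 405 CPM in the BT and 1557 and 566 CPM in the BA (log2 difference -0.83 ± 0.23 SE, q = 0.143), and PDGFRA, the receptor that marks adventitial fibroblasts, was at 83.0 and 150.0 CPM in the BT and 106 and 135 CPM in the BA (log2 difference -0.10 ± 0.34 SE, q = 0.984). In libraries of whole tissue, fewer cells of a type and less RNA per cell cannot be told apart. The part of fibroblasts in the lower matrix genes was not tested.

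FRZB and NDP, secreted proteins of the Wnt pathway, were also lower. FRZB, a decoy receptor that binds Wnt ligands, was at 17.2 and 87.7 CPM in the BT and 150.2 and 347 CPM in the BA and was 5.77-fold lower (log2 difference -2.53 ± 0.36 SE, q = 0.000715). NDP, norrin, which activates Wnt signalling through FZD4, had 0 and 13 reads in the BT and 440 and 236 reads in the BA. That is 0 and 1.93 CPM in the BT and 37.7 and 35.8 CPM in the BA (log2 difference -5.52 ± 1.08 SE, q = 0.017). C2orf40, a secreted peptide precursor outside that pathway, was at 80.3 and 42.5 CPM in the BT and 526 and 119 CPM in the BA and was 4.28-fold lower (log2 difference -2.10 ± 0.34 SE, q = 0.00244).

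CD74 and TYROBP, of antigen presentation and of myeloid cells, were lower as well. CD74, the invariant chain of MHC class II, was at 22.0 and 47.1 CPM in the BT and 156 and 173 CPM in the BA and was 5.05-fold lower (log2 difference -2.34 ± 0.39 SE, q = 0.00397). TYROBP, the signalling adaptor DAP12 of myeloid cells, was at 29.3 and 11.6 CPM in the BT and 127 and 66.3 CPM in the BA and was 4.97-fold lower (log2 difference -2.31 ± 0.46 SE, q = 0.0202). LGALS3, galectin-3, was at 248 and 227 CPM in the BT and 624 and 532 CPM in the BA and was 2.43-fold lower (log2 difference -1.28 ± 0.25 SE, q = 0.0166), and RNASE4, a secreted ribonuclease, was at 328 and 162 CPM in the BT and 672 and 552 CPM in the BA and was 2.64-fold lower (log2 difference -1.40 ± 0.26 SE, q = 0.0103). ISG15, a ubiquitin-like interferon target, was at 55.9 and 324 CPM in the BT and 139 and 832 CPM in the BA. Rabbit 4 was higher at both locations, and the fall within the rabbit was 2.50-fold and 2.57-fold (log2 difference -1.34 ± 0.26 SE, q = 0.0168).

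The summed level of the 10 macrophage markers was 85.1 and 62.0 CPM in the BT and 309 and 237 CPM in the BA, and 6 of the 8 tested lay below the BA without overlap, as 18.1% of all genes did. Besides TYROBP, called lower as 0.339% of all genes were, none of the 8 was called. CD163, a scavenger receptor of resident macrophages, had no read in the BT libraries and 142 and 68 reads in the BA, a CPM at least 18.0-fold higher in the BA against a floor of 3 counts per BT library, the limit that a count of 0 allows (q = 0.122), and AIF1, a calcium-binding protein of macrophages, was at 33.0 and 4.76 CPM in the BT and 69.6 and 68.9 CPM in the BA (log2 difference -2.42 ± 0.64 SE, q = 0.119). C1QA, a chain of complement C1q, was at 1.88 and 2.82 CPM in the BT and 36.4 and 16.2 CPM in the BA (log2 difference -3.35 ± 0.98 SE, q = 0.173). The part of macrophages in these lower genes was not tested.

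MMP9, a gelatinase, was called lower on a single library. It had 350 reads in the BA of rabbit 4 and no read in the BA of rabbit 3 or in the BT of either rabbit (q = 0.0225). Its mean over the BA libraries was at least 42.5-fold above the limit of 3 counts per BT library. RAMP2, the partner protein that makes the calcitonin receptor-like receptor respond to adrenomedullin, was at 8.59 and 45.8 CPM in the BT and 33.5 and 219 CPM in the BA and was 4.35-fold lower (log2 difference -2.12 ± 0.42 SE, q = 0.0187). In the sham intima, scaled separately, RAMP2 was at 285 and 516 CPM in the BT and 162 and 894 CPM in the BA. The part of intimal cells in the medial RAMP2 result was not tested. CHRM3, the M3 muscarinic receptor, had 0 and 3 reads in the BT and 357 and 122 reads in the BA. The ratio of BA over BT was 91.5, with a 95% counting interval of 31.1 to 445 (q = 0.0223). F3, tissue factor, which starts coagulation, was at 90.2 and 61.1 CPM in the BT and 219.7 and 186 CPM in the BA and was 2.72-fold lower (log2 difference -1.44 ± 0.33 SE, q = 0.0497).

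The other genes called lower were HS3ST1, PROS1, HSD11B1, DAB2, S100A10, MYOZ2, ACTN2 and BCL2A1, and those described here were picked out after their values were seen. MYOZ2, calsarcin-1, and ACTN2, alpha-actinin-2, are both parts of the Z-disc of striated muscle, and ACTN2 is bound by MYOZ2. MYOZ2 was at 26.3 and 4.90 CPM in the BT and 65.2 and 169.9 CPM in the BA and was 8.85-fold lower (log2 difference -3.15 ± 0.69 SE, q = 0.0352), with 2.48-fold in rabbit 3 and 34.6-fold in rabbit 4. ACTN2 was at 10.2 and 4.16 CPM in the BT and 42.7 and 65.1 CPM in the BA and was 8.02-fold lower, just inside the threshold (log2 difference -3.00 ± 0.69 SE, q = 0.0497). HSD11B1, the enzyme that regenerates active glucocorticoid, was at 23.9 and 9.07 CPM in the BT and 79.7 and 83.5 CPM in the BA (log2 difference -2.46 ± 0.53 SE, q = 0.0322). PROS1, the anticoagulant protein S, was at 65.8 and 71.5 CPM in the BT and 222 and 187 CPM in the BA (log2 difference -1.57 ± 0.33 SE, q = 0.0294).

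HS3ST1, an enzyme that modifies heparan sulfate, was at 6.45 and 15.6 CPM in the BT and 44.5 and 104 CPM in the BA (log2 difference -2.76 ± 0.54 SE, q = 0.0169). DAB2, an endocytic adaptor, was at 78.7 and 147 CPM in the BT and 260.0 and 309.8 CPM in the BA (log2 difference -1.40 ± 0.30 SE, q = 0.0342), and S100A10, the partner of annexin A2, was at 51.3 and 77.1 CPM in the BT and 197 and 183 CPM in the BA (log2 difference -1.59 ± 0.35 SE, q = 0.035). BCL2A1, an inhibitor of apoptosis, was at 0.537 and 2.38 CPM in the BT and 19.8 and 35.8 CPM in the BA (log2 difference -4.41 ± 1.01 SE, q = 0.0497). All 4 were lower in both BT libraries than in both BA libraries.

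**Figure D2:**
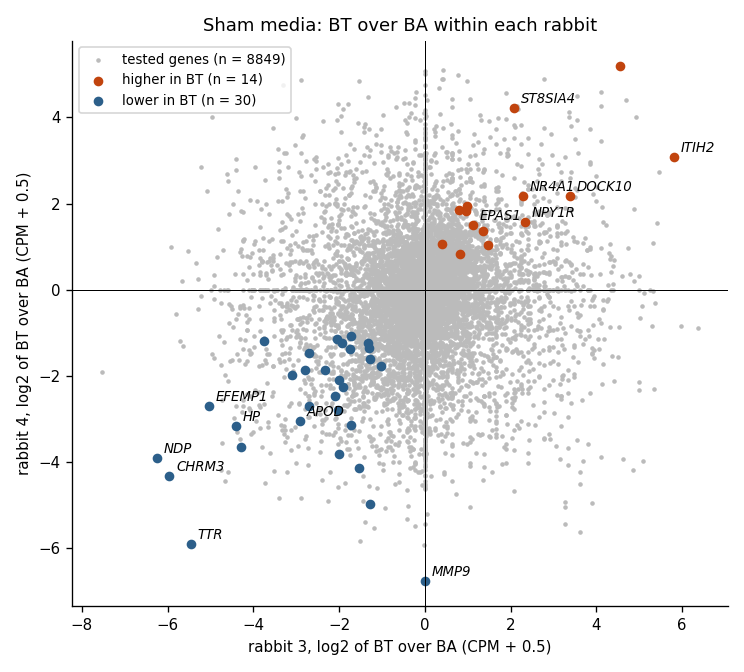
Log2 ratio of BT over BA within rabbit 3 (x axis) and rabbit 4 (y axis), from CPM + 0.5, for 8849 tested genes in grey, 14 higher genes in orange and 30 lower genes in blue. The called genes lie at the lower left and the upper right, except MMP9, which has a ratio of 0 in rabbit 3.

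Leaving out a rabbit ended many of the calls. In fits that left out the sham pair of 1 rabbit and kept the ligated rabbits, 14 of the 44 calls passed whichever rabbit was left out. ADAMTS1, ERRFI1, NR4A2 and SPARCL1 among the higher genes and F3, HSD11B1, ISG15, MFAP4, MYOZ2 and RNASE4 among the lower genes passed without rabbit 3 but not without rabbit 4, and MMP9 had no value without rabbit 4. DOCK10 and ITIH2 among the higher genes and C2orf40, CD74, CLU, DAB2, LGALS3, NDP and S100A10 among the lower genes passed without rabbit 4 but not without rabbit 3. The log2 difference of MYOZ2 was -5.09 without rabbit 3 and -1.33 without rabbit 4 (q = 0.416), and that of CLU -1.19 without rabbit 3 (q = 0.0928) and -3.82 without rabbit 4.

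Few genes were present at 1 location and absent from the other. Among the genes that were not called, 4 had 3 reads or fewer in both libraries of 1 location and more than 10 CPM in both of the other. SPATA5, an AAA-type ATPase, had 54 and 68 reads in the BT and 1 and 0 reads in the BA (q = 0.108). On the BA side were CD163, GDF10 and GRIK1. GDF10, a ligand of the TGF-beta family, had 0 and 3 reads in the BT and 136 and 114 in the BA (q = 0.143). GRIK1, a glutamate receptor subunit, had 0 and 1 reads in the BT and 151 and 74 in the BA (q = 0.160).

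The 5 genes with the highest CPM over the 4 libraries, a level not scaled by gene length, were ACTA2, MGP, MYL6, VIM and TPM1, and none was called. MGP, an inhibitor of vascular calcification, was at 63909 and 40362 CPM in the BT and 58773 and 33809 CPM in the BA (log2 difference 0.19 ± 0.11 SE, q = 0.75). VIM, the intermediate filament vimentin, was at 16742 and 25036 CPM in the BT and 12976 and 18369.6 CPM in the BA (log2 difference 0.41 ± 0.13 SE, q = 0.247).

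None of the 23 contractile genes tested passed. Their median log2 difference was 0.19 against -0.03 for all genes, and 8 lay above the BA without overlap (against 15.8% of all genes) against 1 below (against 18.1% of all genes). The median of the ratios within each rabbit was 0.42 in rabbit 3 and -0.04 in rabbit 4, so the 2 rabbits differed in sign. CALD1, the actin-binding protein caldesmon, was at 7919 and 7187 CPM in the BT and 5446 and 4468 CPM in the BA (log2 difference 0.61 ± 0.16 SE, q = 0.0953). LMOD1, leiomodin, which nucleates smooth muscle actin filaments, was at 314 and 455 CPM in the BT and 139 and 247 CPM in the BA (log2 difference 1.03 ± 0.27 SE, q = 0.107). None of the 32 integrin and focal adhesion genes passed (median 0.43), with 8 above (against 15.8% of all genes) and 2 below (18.1%) without overlap. ITGA8, the integrin alpha-8 chain of VSMCs, was at 265 and 393 CPM in the BT and 160.4 and 175 CPM in the BA (log2 difference 0.94 ± 0.28 SE, q = 0.176), and VCL, vinculin, was at 1074 and 364 CPM in the BT and 734 and 195 CPM in the BA (log2 difference 0.72 ± 0.23 SE, q = 0.225).

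Among the matrix lists, elastic fibre and microfibril genes held 2 calls among 13, EFEMP1 and MFAP4, both lower (against 0.339% of all genes). The list median was -0.997. The median of the ratios within rabbit 3 was -1.53 and within rabbit 4 -0.17, so rabbit 3 carried most of it. In this list 5 genes lay below the BA without overlap (against 18.1% of all genes) and 1 above (15.8%). MFAP5, a microfibril protein on the fibroblast list too, was at 0 and 24.4 CPM in the BT and 91.9 and 93.0 CPM in the BA (log2 difference -4.04 ± 0.93 SE, q = 0.0514). Of 17 proteoglycan genes only DCN passed, as lower (against 0.339% of all genes), with a median of -0.23. None of the 22 genes for fibrillar collagens and their processing passed (median 0.14), with 5 above (against 15.8% of all genes) and 5 below (18.1%) without overlap. LOXL2, a lysyl oxidase that cross-links collagen, was at 129 and 225 CPM in the BT and 45.4 and 120.4 CPM in the BA (log2 difference 1.20 ± 0.34 SE, q = 0.155), and P4HA2, a collagen prolyl hydroxylase subunit, was at 28.7 and 49.5 CPM in the BT and 72.6 and 103 CPM in the BA (log2 difference -1.19 ± 0.43 SE, q = 0.322).

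None of the 16 basement membrane genes passed (median 0.65). Their 2 smallest p-values went in opposite directions. SPARC, a collagen-binding glycoprotein, was at 853 and 634 CPM in the BT and 1246 and 1604 CPM in the BA (log2 difference -0.94 ± 0.22 SE, q = 0.0634), and HSPG2, the heparan sulfate proteoglycan perlecan, was at 130.0 and 255 CPM in the BT and 55.1 and 128 CPM in the BA (log2 difference 1.12 ± 0.32 SE, q = 0.172). Of all genes 0.158% were called higher and 0.339% lower. The 19 matricellular genes held NOV and SPARCL1 as higher and VIT as lower (median 0.12). The 30 matrix proteases and inhibitors held ADAMTS1 as higher and MMP9 as lower (median 0.13). The medians of these last 2 lists changed sign, to -0.01 and -0.0041, under library size alone.

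Of 32 tested genes for vasoactive receptors and their effectors, NPY1R was called higher (against 0.158% of all genes) and RAMP2 lower (0.339%). The median was 0.39. Without overlap 10 lay above the BA (against 15.8% of all genes) and 1 below (18.1%). None of 30 ion channel genes passed (median 0.20). KCNJ8, the pore of the vascular KATP channel, was at 62.0 and 74.0 CPM in the BT and 21.0 and 40.7 CPM in the BA (log2 difference 1.21 ± 0.48 SE, q = 0.403), and ORAI1, the store-operated calcium channel, was at 0 and 29.6 CPM in the BT and 19.0 and 40.2 CPM in the BA (log2 difference -2.63 ± 1.16 SE, q = 0.501). None of 14 junction genes passed (median 0.13, or -0.0011 under library size alone). The medians of the ratios within rabbits 3 and 4 were below 0, at -0.29 and -0.18, so the sign of the junction list was not settled. CTNNB1, beta-catenin, was at 69.8 and 9.36 CPM in the BT and 107 and 69.8 CPM in the BA (log2 difference -1.72 ± 0.53 SE, q = 0.2), and PKP4, plakophilin-4, was at 95.1 and 170.3 CPM in the BT and 70.5 and 88.6 CPM in the BA (log2 difference 0.69 ± 0.35 SE, q = 0.638).

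Of 32 Wnt genes 2 passed, FRZB and NDP, both lower (against 0.339% of all genes). The median was -1.02, while the medians of the ratios within rabbits 3 and 4 were -0.61 and -0.52. Without overlap 14 of the 32 lay below the BA against 6 above, where 18.1% and 15.8% of all genes did. Of 31 TGF-beta and BMP genes none passed. The median was 0.29, with 11 above (against 15.8% of all genes) and 4 below (18.1%) without overlap. TGFB2, a TGF-beta ligand, was at 583 and 541 CPM in the BT and 352 and 202 CPM in the BA (log2 difference 1.07 ± 0.26 SE, q = 0.0642), and BMPR1A, a BMP type I receptor, was at 441 and 621 CPM in the BT and 231 and 323 CPM in the BA (log2 difference 0.94 ± 0.24 SE, q = 0.108).

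None of 12 Notch genes passed (median 0.32). NOTCH3, the Notch receptor of VSMCs, was at 238 and 742 CPM in the BT and 172 and 443 CPM in the BA (log2 difference 0.61 ± 0.25 SE, q = 0.428), and its ligand JAG1 was at 418 and 567 CPM in the BT and 321 and 367 CPM in the BA (log2 difference 0.51 ± 0.24 SE, q = 0.589). None of 30 growth factor genes passed either (median -0.00). PDGFC, a PDGF ligand, was at 265 and 448 CPM in the BT and 148 and 162 CPM in the BA (log2 difference 1.16 ± 0.28 SE, q = 0.0739), and IGFBP6, a binding protein for insulin-like growth factors, was at 690.2 and 721 CPM in the BT and 1075 and 1395 CPM in the BA (log2 difference -0.80 ± 0.21 SE, q = 0.115). Of 20 targets and regulators of YAP and SRF only F3 passed, as lower (against 0.339% of all genes), while the median was 0.33. Of these genes 7 lay above (against 15.8% of all genes) and 2 below (18.1%) without overlap.

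Of 32 regional patterning factors with a testable level none passed, and the median was -0.08. EBF2, an early B-cell factor that also marks mesenchyme, was at 12.6 and 17.2 CPM in the BT and 0.772 and 0.607 CPM in the BA (log2 difference 4.38 ± 1.40 SE, q = 0.226), and its relative EBF1 was at 234 and 378 CPM in the BT and 156 and 174 CPM in the BA (log2 difference 0.85 ± 0.28 SE, q = 0.256). Among 17 immediate early and stress factors, NR4A1 and NR4A2 passed, both higher (against 0.158% of all genes). This list had the highest median of the 24, 0.80, but 6 of its 17 members had a log2 difference below 0. Without overlap 8 lay above (against 15.8% of all genes) and 4 below (18.1%). None of 16 heat shock genes passed (median 0.37). DNAJB4, an HSP40 co-chaperone, was at 555 and 181 CPM in the BT and 465 and 38.9 CPM in the BA (log2 difference 1.22 ± 0.35 SE, q = 0.172), and HSPH1, an HSP110 chaperone, was at 499 and 427 CPM in the BT and 319 and 204 CPM in the BA (log2 difference 0.85 ± 0.26 SE, q = 0.186).

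Of 21 interferon response genes only ISG15 passed, as lower (against 0.339% of all genes). The list had the lowest median of the 24, -1.40, while the medians of the ratios within rabbits 3 and 4 were -0.43 and -0.90. Without overlap 6 of the 21 lay below the BA (against 18.1% of all genes) and 0 above (15.8%). Of 20 inflammation genes HP and CP passed, both lower (against 0.339% of all genes), although the median was 0.25. Energy metabolism showed no call. The median of 25 oxidative phosphorylation genes was 0.00 on TMM and -0.13 on library size alone. NDUFA2, a complex I subunit, was at 1386 and 1449 CPM in the BT and 1035 and 1184 CPM in the BA (log2 difference 0.36 ± 0.20 SE, q = 0.694), and SDHA, the complex II flavoprotein, was at 36.5 and 33.7 CPM in the BT and 65.9 and 57.7 CPM in the BA (log2 difference -0.81 ± 0.47 SE, q = 0.712). The median of 19 glycolysis genes was -0.17. SLC2A1, the glucose transporter GLUT1, was at 30.1 and 182 CPM in the BT and 7.29 and 72.6 CPM in the BA (log2 difference 1.67 ± 0.42 SE, q = 0.0933), and TPI1, triosephosphate isomerase, was at 96.9 and 81.1 CPM in the BT and 138 and 237 CPM in the BA (log2 difference -1.03 ± 0.35 SE, q = 0.275).

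The 18 cytosolic ribosomal protein genes held no call. Without overlap 11 lay above the BA (against 15.8% of all genes) and 1 below (18.1%), and the median was 0.31. RPS28 was at 1124 and 1457 CPM in the BT and 795 and 800.4 CPM in the BA (log2 difference 0.68 ± 0.21 SE, q = 0.2), and RPL12 was at 1194 and 1412 CPM in the BT and 815 and 928 CPM in the BA (log2 difference 0.58 ± 0.20 SE, q = 0.306). The medians of the ratios within rabbits 3 and 4 differed in sign for other lists too, at -0.19 and 0.07 for the fibrillar collagen list, -0.16 and 0.12 for the proteoglycan list, -0.25 and 0.34 for the matricellular list and 0.16 and -0.11 for the oxidative phosphorylation list. Those of the inflammation list were -0.01 and 0.01.

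**Figure D3:**
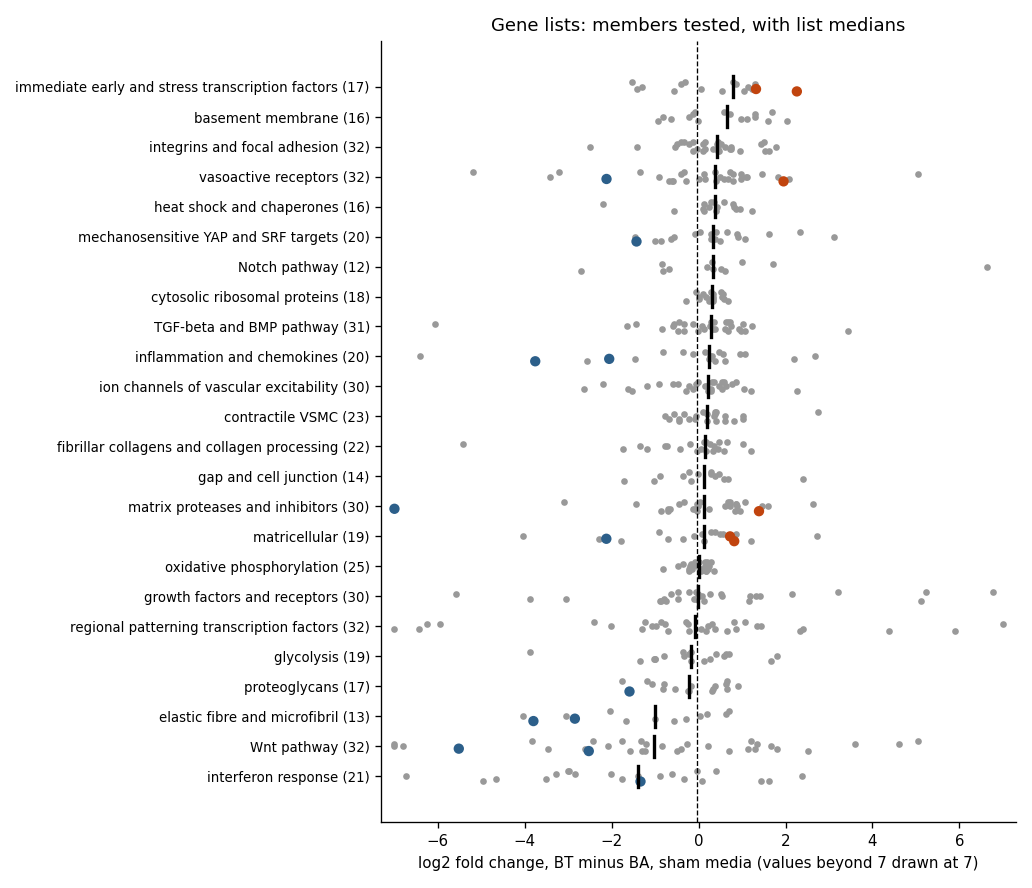
Log2 fold change of BT minus BA in sham media for the tested members of 24 gene lists, each gene a point, with values beyond 7 drawn at 7. Grey points did not pass, orange points were called higher and blue points lower, black bars are list medians, the dashed line is the median of all genes (-0.03), and numbers in brackets are the genes tested.

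The remaining marker lists held no call apart from TTR. The 10 endothelial markers summed to 549 and 1535 CPM in the BT and 482 and 772 CPM in the BA, and none of the 9 tested was called. In the sham intima, scaled separately, they summed to 1322 and 5884 CPM in the BT and 2016 and 6176 CPM in the BA, so the medial BT of rabbit 4 lay above the intimal BT of rabbit 3. ERG, an endothelial transcription factor, was at 30.6 and 88.7 CPM in the BT and 5.15 and 29.4 CPM in the BA (log2 difference 2.07 ± 0.55 SE, q = 0.119), while CLDN5, an endothelial claudin, was at 2.95 and 64.4 CPM in the BT and 12.4 and 75.0 CPM in the BA (log2 difference -1.03 ± 0.59 SE, q = 0.703). The 3 erythrocyte markers followed the rabbit, with 1.61 and 25.0 CPM in the BT and BA of rabbit 3 and 6093 and 4438 CPM in those of rabbit 4. The 7 leptomeningeal markers summed to 41.1 and 322 CPM in the BT and 167 and 1667 CPM in the BA, and TTR is on that list as well. TTR alone was at 1551 CPM in the BA of rabbit 4. Over the 6 tested leptomeningeal markers the medians of the ratios within rabbits 3 and 4 differed in sign, at -1.99 and 1.29.

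The 6 pericyte markers summed to 245 and 239 CPM in the BT and 204 and 129 CPM in the BA, and the 6 Schwann cell and nerve markers to 291 and 419 CPM in the BT and 598 and 588 CPM in the BA, with no call in either list. PMP22, a myelin protein that fibroblasts make as well, took most of the latter sum, at 273 and 402 CPM in the BT and 576 and 546 CPM in the BA (log2 difference -0.76 ± 0.25 SE, q = 0.248). Brain cells and lymphocytes were nearly absent. The 7 neuron markers summed to at most 6.45 CPM in a library, the 6 astrocyte markers to at most 26.7 CPM, the 5 oligodendrocyte markers to at most 3.27 CPM and the 5 lymphocyte markers to at most 3.57 CPM.

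**Figure D4:**
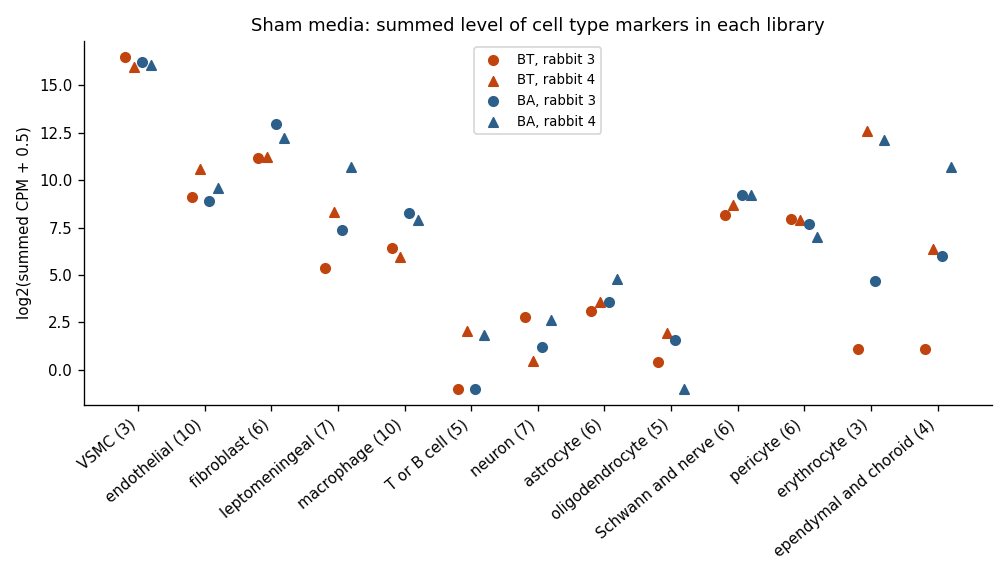
Summed CPM of each marker list in the 4 medial libraries of sham rabbits, as log2(summed CPM + 0.5), with BT in orange, BA in blue, rabbit 3 as circles and rabbit 4 as triangles, and the number of markers found in brackets. Fibroblast and macrophage sums are higher in both BA libraries, and erythrocyte sums are higher in both libraries of rabbit 4.

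The same location difference was measured in the media of ligated rabbits, which were other animals, and in the intima of the sham rabbits. In ligated media 78 of 8545 genes were higher in the BT (0.913%) and 109 lower (1.28%). In sham intima 9 of 9261 were higher (0.0972%) and none lower (0%), where 162 were lower at an unadjusted p below 0.05. Levels were scaled separately in each comparison. Of the 14 genes higher in sham media, 9 were higher in ligated media and 2 of them passed, EPAS1 and ADAMTS1. EPAS1 was at 8674 and 5251 CPM in the BT and 4794 and 3685 CPM in the BA of ligated rabbits (log2 difference 0.68 ± 0.18 SE, q = 0.0145), and ADAMTS1 at 947 and 502 CPM in the BT and 429 and 194 CPM in the BA (log2 difference 1.26 ± 0.25 SE, q = 0.000121). In the sham intima 7 of the 14 were higher and none passed.

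Of the 30 genes lower in sham media, 28 could be tested in ligated media, and 11 were lower there and 17 higher. Those that passed as lower again were TTR, HP and MYOZ2. HP was at 30.4 and 30.7 CPM in the BT and 151 and 77.6 CPM in the BA of ligated rabbits (log2 difference -1.81 ± 0.39 SE, q = 0.000618), and MYOZ2 at 17.9 and 25.2 CPM in the BT and 76.6 and 116 CPM in the BA (log2 difference -2.15 ± 0.41 SE, q = 8.47e-05). TTR was seen in only 1 of the 4 ligated medial libraries, the BA of rabbit 5, at 39.5 CPM (q = 0.00319). ISG15 passed in the opposite direction, at 163 and 392 CPM in the BT and 129 and 82.8 CPM in the BA of ligated rabbits (log2 difference 1.30 ± 0.31 SE, q = 0.00379). In the sham intima 9 of the 30 were lower and 21 higher. The only one that passed was EFEMP1, which was higher in the BT (log2 difference 3.54 ± 0.44 SE, q = 0.0304). The intimal BA library of rabbit 4 held little of some of these genes. DCN, APOD and CP were at 8.49, 12.8 and 2.72 CPM there, against 1951, 4210 and 783 CPM in the intimal BA of rabbit 3. CLU was not low there, at 1232 CPM against 551 CPM. The fibroblast markers summed to 17.9 CPM in that library and 2406 CPM in the intimal BA of rabbit 3. The part of this 1 library in the higher genes was not tested.

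The difference of the location effect between sham and ligated media passed for 46 of 9368 genes (0.491%), among them 11 of the 30 lower genes and 2 of the 14 higher genes. The called genes had been chosen on the sham difference, which is part of this test, so nothing is read from their share. In ligated media APOD was at 547 and 1004 CPM in the BT and 869.9 and 824 CPM in the BA (log2 difference -0.19 ± 0.23 SE, q = 0.888), so the high level of the sham BA was not seen (difference -2.80 ± 0.28 SE on the log2 scale, q = 4.6e-06). CP was at 1064 and 919 CPM in the BT and 815 and 511 CPM in the BA of ligated rabbits (difference -2.68 ± 0.30 SE on the log2 scale, q = 9.74e-06). EFEMP1 was at 54.7 and 62.7 CPM in the BT and 45.5 and 51.2 CPM in the BA (difference -4.10 ± 0.64 SE on the log2 scale, q = 0.00164). Of the higher genes, NPY1R was at 51.2 and 52.1 CPM in the BT and 60.3 and 82.3 CPM in the BA of ligated rabbits (difference 2.40 ± 0.45 SE on the log2 scale, q = 0.00727). These levels, scaled separately, were below every BT library of the sham rabbits, while the sham BA libraries were at 66.5 and 149 CPM. Between media and intima of sham rabbits the location effect differed for 5 of 9639 genes (0.0519%), 2 of which, TTR and EFEMP1, were among the lower genes. In the intima TTR was at 107 and 0.311 CPM in the BT and 3.50 and 0 CPM in the BA (difference -10.91 ± 0.67 SE on the log2 scale, q = 0.00061), and EFEMP1 at 999.8 and 10.3 CPM in the BT and 113 and 0.545 CPM in the BA (difference -7.33 ± 0.86 SE on the log2 scale, q = 0.0263). The intimal BT library of rabbit 3 held most of both, and its ependymal and choroid markers summed to 1021 CPM against at most 52.3 CPM in the other 3 intimal libraries.

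**Figure D5:**
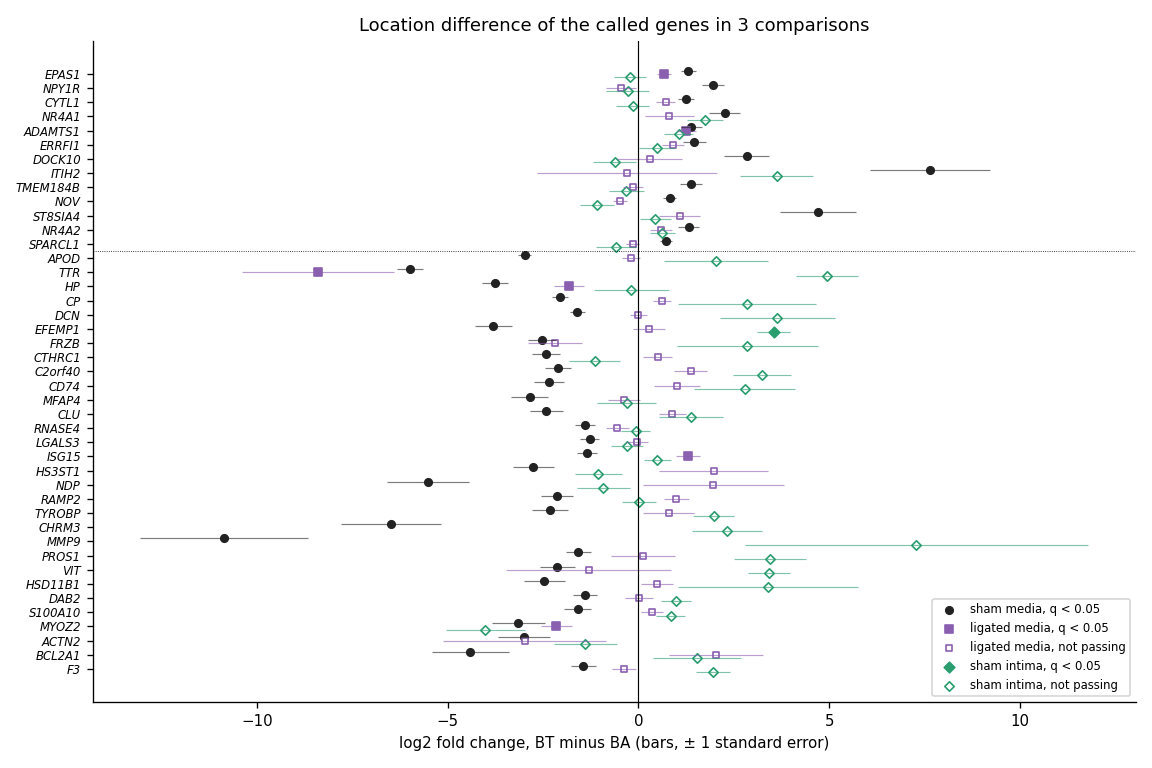
Log2 fold change of BT minus BA for 43 of the 44 genes called in sham media, in sham media (black circles), ligated media (purple squares) and sham intima (green diamonds), with bars of 1 standard error and filled symbols where the q-value is below 0.05. In ligated media 2 of the 14 higher genes and 3 of the 30 lower genes passed in the same direction, and genes without enough reads in a comparison have no symbol for it.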

How the data were processed

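Media and intima of the BA and BT were microdissected from 4 rabbits, amplified with SMART-Seq v4 and sequenced as single reads from Nextera libraries. The authors aligned reads to OryCun2.0 with STAR, kept unique alignments, and counted reads on exons of Ensembl genes with featureCounts 1.6.2 and its reverse-stranded setting. The deposited values are raw counts for 13788 symbols. The kit does not mark strand, so this setting would leave out the reads of 1 orientation of every gene, which could not be checked here, and reads of overlapping or antisense genes cannot be told apart. The row without a symbol held 13.8% to 16.3% of the counts of the 4 sham medial libraries and was left out. Dates stood in place of 22 symbols, which were not mapped to genes.

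Genes with a mean above 1 CPM at either location were tested with edgeR 4.0.16 (R 4.3.3), with TMM scaling, the older quasi-likelihood form and rabbit as a block, in a separate fit for each comparison, and adjusted by Benjamini-Hochberg. RPKM, which the study filtered on, was not computed, as gene lengths were not used here. The labels give the same rabbit for the BT and BA of a number, which pairs the libraries. Deviations of libraries of the same rabbit correlated at r = 0.177 over genes. Differences of location effects were fitted over 8 libraries with an interaction. SEs are on the log2 scale, from the fold change and its F. Replicates of a location differed by far more than counting error (chi-square per degree of freedom 56.5 in the BT and 106 in the BA). The limit for a count of 0 was 3 counts, and intervals and this limit cover counting error only. Simulated data gave every gene the same spread, whereas the spread in the fit differed between genes. At the common spread estimated here the fit called few of the genes changed by known folds. With a small spread it called them all.

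The samples were chosen by their labels. That choice and those of the 24 gene lists and the 13 marker lists were made with earlier results of these data known. Named genes were the 15 smallest p-values in each direction among q-values below 0.05, of each list the members that passed (at most 4, or else the 2 smallest p-values), the markers, the 5 highest mean CPM, and genes with at most 3 counts in both libraries of 1 location and above 10 CPM in both of the other. 1 gene called higher is counted but not reported here. Genes outside this rule were chosen after their values were seen. Alternatives were RLE scaling, library size alone, 3 other filters, no block, the version 4 form of edgeR, DESeq2 1.42.0, a fit over 8 medial libraries, thinned counts, and leaving out each rabbit. Summaries and figures were made with Python 3.11.15 and pandas 2.3.3.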

Additional observations from a re-analysis of the deposited data

Results flagged for a closer look

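For 13 of the 44 called genes the location effect differed between sham and ligated media by the test of the difference itself, with rabbit as a block (edgeR interaction, q-value below 0.05 over 9368 genes). Values are log2 differences of BT minus BA in sham media, less the same in ligated media. For lower genes they were -2.80 for APOD, -2.68 for CP, -1.61 for DCN, -4.10 for EFEMP1, -2.95 for CTHRC1, -3.49 for C2orf40, -3.38 for CD74, -3.31 for CLU, -2.65 for ISG15, -3.13 for RAMP2 and -1.96 for S100A10. For higher genes they were 2.40 for NPY1R and 1.28 for NOV. Over all genes 46 of the 9368 passed (0.491%). The 44 genes had been chosen on the sham difference, which is part of this test, so their count is not read against that share. Between media and intima of the sham rabbits the location effect differed for TTR (-10.91) and EFEMP1 (-7.33), by the same kind of test over 9639 genes.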

How the results depend on the processing

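The number of calls changed with the settings. Against 14 higher and 30 lower genes, there were 0 and 1 without the replicate block, 0 and 4 of 7810 genes with filterByExpr, 3 and 8 of 6850 genes above 5 CPM, and 0 and 2 with the version 4 form of edgeR. There were 24 and 40 with RLE scaling, 12 and 52 with library size alone, 57 and 64 among all 10529 genes with a count, 51 and 58 with DESeq2, 16 and 31 in the fit over 8 medial libraries, and 66 and 67 after thinning to the smallest library. Leaving out a rabbit gave 82 to 86 higher and 67 to 100 lower genes. There the sham rabbit that was kept had 1 library per location and was assumed to vary like the ligated rabbits. The 44 calls kept their direction wherever they had a value. All 44 passed with RLE scaling, all genes with a count, DESeq2 and thinning, 42 with library size alone and 32 in the fit over 8 libraries. Without rabbit 3 25 passed and without rabbit 4 23 passed, and 14 passed in both (5 higher and 9 lower). The 10 that passed in neither included ACTN2, BCL2A1, CHRM3, HS3ST1, NOV, NR4A1, PROS1, TYROBP and VIT. TTR passed in all but the fit without the block, and HP and CP in all but that fit and the version 4 form. ALDH1A2, a retinoic acid synthesis enzyme on the leptomeningeal list with a log2 difference of -0.03, passed as higher (1.32, q = 0.0441) without rabbit 3 and as lower (-1.44, q = 0.0307) without rabbit 4. The cause of these changes was not tested, except that the fits over 6 or 8 libraries drew on more libraries. Read depth was 2.82 times greater in the BA than in the BT of rabbit 3 and 0.903 times in rabbit 4, and genes near 1 CPM rested on few reads in the BT of rabbit 3.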
